A study of Mus musculus with 2 samples.

Results

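*Serpina1a*, *Serpina1b*, *Serpina1c*, *Serpina1d* and *Serpina1e* are the mouse copies of the gene for alpha-1-antitrypsin, and they are 5 of the 32285 genes counted in single cells of mouse femurs. They were chosen by their measured level, since they stood among the genes with the largest ratio to other clusters, the leading genes, of a cluster of growth plate chondrocytes marked by *Matn3* and *Epyc*, so their level in that cluster is given as a description. Serpins are inhibitors that are cleaved by their target protease and trap it in an inactive complex. Alpha-1-antitrypsin is made mostly by hepatocytes, is secreted into the blood, and restrains neutrophil elastase. In the growth plate, resting chondrocytes give rise to columns of flattened, matrix-rich cells that carry *Matn3* and *Epyc*, and these enlarge into hypertrophic chondrocytes that make type X collagen (*Col10a1*). Calcitriol, the active form of vitamin D, acts through the vitamin D receptor, a transcription factor.

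The study compared untreated C57BL/6J mice with mice given calcitriol, both aged 7 weeks. The treated mice had received 3 daily injections of 2.5 µg/kg, and the cells were taken 24 h after the last one. The untreated mice had no vehicle injection, so the injections themselves and the calcitriol cannot be told apart. In both groups the epiphyses had been cut off, the marrow flushed out, and the bones digested with collagenase and EGTA. CD45-positive cells were then removed. The femoral cells of 6 mice were pooled into 1 droplet library per group, which leaves no replicate check on any difference between the groups. Intervals in brackets are exact at the 95% level (Poisson for levels, Clopper-Pearson for shares, conditional binomial for ratios) and cover counting error only.

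The untreated library held 6076 barcodes and 70266983 unique molecular identifiers (UMIs, 1 per captured mRNA molecule), and the calcitriol library 4562 barcodes and 60392557 UMIs. After the filters 4394 and 3693 cells were left, in 24 clusters. Erythroid-like cells made up 2307 of the former and 435 of the latter, so the libraries differ much in their makeup. Levels are the UMIs of a gene relative to all UMIs of the same cells, in counts per 1000000 (CPM). They come from the 3′ ends of transcripts and do not grow with transcript length. The libraries shared 8 barcodes, 2 of them among the kept cells, and none of the 8 had a *Serpina1* UMI in both.

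The 5 genes lie on the minus strand of chromosome 12 within 228742 bases (GRCm38, RefSeq). From left to right they are *Serpina1b* (chr12:103728156-103738189), *Serpina1d* (chr12:103763587-103773633), *Serpina1a* (chr12:103853295-103863619), *Serpina1c* (chr12:103894926-103904950) and *Serpina1e* (chr12:103946931-103956897). Over their aligned bases, with gaps left out, their transcripts are 95.7% to 98.4% identical in the 10 pairs, with a median of 96.5%. Over the last 500 bases, where the 3′ reads fall, the share of 90-base stretches found unchanged in another copy was 14.4% for *Serpina1c*, 10.5% for *Serpina1a*, 7.54% for *Serpina1d*, 3.65% for *Serpina1b* and 0% for *Serpina1e*. Reads from such stretches cannot be placed on 1 copy. Cell Ranger, the counting software, drops reads that map to several genes, so they are missing from single copies and from the sum. The share of such stretches differs between copies, so the split between the 5 genes is less certain than their sum.

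The promoters of the 5 genes, taken from the RefSeq table for GRCm38.p6, were nearly as alike as the transcripts. Over the aligned bases of the 300-base promoters, with gaps left out, the identity was 91.7% to 98.4%, with a median of 94.5%. The pairs with *Serpina1e* aligned over only 237 to 249 bases. A 120-base stretch is printed for each copy because all 5 line up there without a gap. It ends 5 bases before the RefSeq start of *Serpina1a*, 10 before *Serpina1b*, 11 before *Serpina1c*, 0 before *Serpina1d* and 62 before *Serpina1e*. Capitals mark the bases that differ from *Serpina1a*. All are read 5′ to 3′ on the minus strand.
Serpina1a, chr12:103863625-103863744: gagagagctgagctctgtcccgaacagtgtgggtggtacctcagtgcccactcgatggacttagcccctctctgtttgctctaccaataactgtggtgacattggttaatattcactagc
Serpina1b, chr12:103738200-103738319: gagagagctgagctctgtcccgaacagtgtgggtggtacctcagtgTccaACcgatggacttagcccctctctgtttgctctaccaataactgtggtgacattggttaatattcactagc
Serpina1c, chr12:103904962-103905081: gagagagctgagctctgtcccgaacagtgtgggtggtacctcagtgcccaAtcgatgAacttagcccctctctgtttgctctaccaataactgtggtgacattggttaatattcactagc
Serpina1d, chr12:103773634-103773753: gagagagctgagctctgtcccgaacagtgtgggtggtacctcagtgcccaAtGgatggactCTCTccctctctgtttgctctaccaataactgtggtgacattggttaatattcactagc
Serpina1e, chr12:103956960-103957079: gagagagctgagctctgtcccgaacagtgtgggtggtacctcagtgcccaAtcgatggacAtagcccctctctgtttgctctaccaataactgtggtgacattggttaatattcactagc

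Against *Serpina1a*, *Serpina1b* differed at 3 of the 120 bases, *Serpina1c* and *Serpina1e* at 2 each, and *Serpina1d* at 6. The longest run that all 5 share has 59 bases, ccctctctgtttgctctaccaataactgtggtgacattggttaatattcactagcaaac, and among the 32851 promoters of the table it was found in these 5 alone.

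Short motifs were searched on both strands of the 300-base promoters. TGTGGT (RUNX factors) stood in all 5 and in 16.8% of all promoters, and TGTTTNC (FOXA factors) in all 5 and in 20.5%. Both motifs occur in the 59-base run that the 5 share, so the 5 matches are not 5 separate observations. The letters ACAAAG and AACAAT (SOX factors; 18.7% and 10.7% of all promoters) were in none of the 5, nor was TTGCNNCAA (C/EBP factors; 2.08%). The consensus direct repeat to which the vitamin D receptor can bind was also in none. Only 2 of the 32851 promoters (0.00609%) hold it, so its absence from these 5 is uninformative. Nothing about binding follows from these matches.

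Nearly all *Serpina1* mRNA was in cartilage cells. Of the 23419 UMIs that the kept cells held for the 5 genes together, 99.2% [99.1, 99.3] lay in 4 chondrocyte-like clusters, which made up 1496 of the 8087 cells. The *Matn3* and *Epyc* cluster alone, with 279 cells, held 76.3% [75.8, 76.9] of them. The cluster led by *Col10a1*, with 140 cells, held 11.97%, and the cluster led by *Prg4* and *Cytl1*, genes of superficial articular cartilage, held 7.31% in 765 cells. A cluster with *Notum* and *Sfrp5*, 2 of the 4 listed resting zone genes, held 3.58% in 312 cells. The other 2 were higher elsewhere. *Ucma* was at 520 CPM there and 1294 CPM in the *Matn3* and *Epyc* cluster, and *Pthlh* at 11.1 CPM there and 29.3 CPM in the *Prg4* and *Cytl1* cluster. The signal was thus densest in growth plate cells but also reached the cluster that carried 5 of 5 superficial articular markers.

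The cluster of *Matn3* and *Epyc* cells carried 12 of 12 chondrocyte markers, and its 10 leading genes were *Serpina1a*, *Matn3*, *Serpina1d*, *Ppa1*, *Serpina1b*, *Fxyd2*, *Epyc*, *Col9a1*, *Col9a3* and *Col9a2*. The *Col10a1* cluster carried 11 of the 12 and the *Notum* and *Sfrp5* cluster 7. The summed level of the 5 genes was 2171 CPM in the *Matn3* and *Epyc* cluster, 531 CPM in the *Col10a1* cluster, 151 CPM in the *Notum* and *Sfrp5* cluster and 143 CPM in the *Prg4* and *Cytl1* cluster. The intervals of the final pair, 141 to 161 and 137 to 150 CPM, overlap, and those of the other neighbours in this order do not. Clustered without the 5 genes, *Matn3*, *Epyc* and *Col10a1* among the variable genes, the cluster highest in *Matn3* had 232 cells and 2467 CPM.

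Outside the chondrocyte-like clusters the 5 genes were near the floor. The 20 other clusters, with 6591 cells, held 186 UMIs together, or 2.24 CPM, and 18 of the 20 were under 5 CPM. The highest were an osteocyte-like cluster with 15.9 CPM and an endothelial-like cluster with 11.9 CPM. Only 63 of those cells had a UMI of any of the 5 genes. Of these, 55 had exactly 1 UMI and 5 cells held 124 of the 186 UMIs. The richest was an osteocyte-like cell with 49 UMIs of the 5 genes and 9 of *Col2a1*, the main collagen gene of cartilage. The next was an endothelial-like cell that was called a doublet, with 39 and 263.

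Detection was compared at 5000 UMIs per cell, since the *Matn3* and *Epyc* cells were deep, with a median of 28777 UMIs, against 10333 in erythroid-like cells. At 5000 UMIs, 428 untreated and 450 calcitriol cells were too shallow and were left out. The share of cells with a *Serpina1* UMI was then 64.2% [58.1, 70.1] in the *Matn3* and *Epyc* cluster (73.8% of 279 cells with all UMIs) and 39.6% [31.2, 48.4] in the *Col10a1* cluster (61.4%). It was 10.8% in the *Prg4* and *Cytl1* cluster (15.2%) and 5.07% in the *Notum* and *Sfrp5* cluster (8.01%). Erythroid-like cells, a type not known to make alpha-1-antitrypsin, gave 0.399% [0.191, 0.732] of 2507 cells, and all cells outside the chondrocyte-like clusters 0.534%. All 4 chondrocyte-like shares lay above that background.

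**Figure D1:**
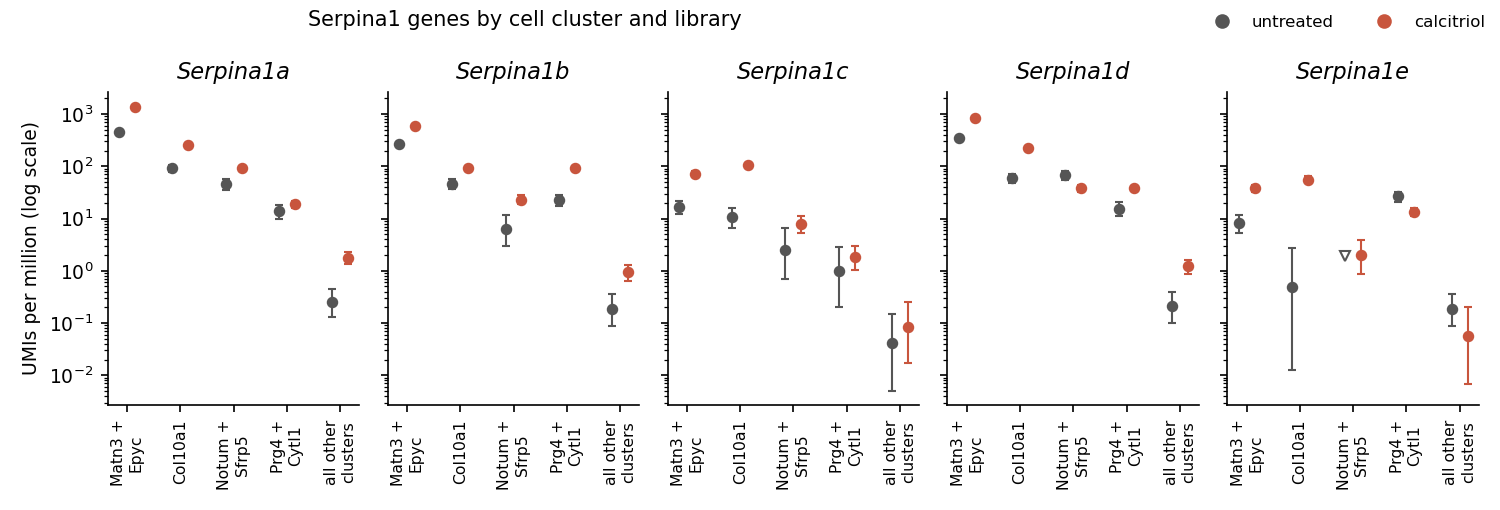
Level of each *Serpina1* gene (CPM, log axis) in the 4 chondrocyte-like clusters and in all other clusters, for the untreated (grey) and calcitriol (red) library. Points are 1 library each, bars are exact 95% Poisson intervals, and the open triangle marks the limit of 3 counts for a gene with 0 UMIs. All 5 genes are at least 10-fold below their highest level in the other clusters, and *Serpina1b* and *Serpina1e* stand higher in the *Prg4* and *Cytl1* cluster than in the *Notum* and *Sfrp5* cluster.

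The copies were not used alike in the 4 clusters. In the *Matn3* and *Epyc* cluster *Serpina1a* gave 46.3% of the summed UMIs (1006 CPM), *Serpina1d* 29.2% (633 CPM), *Serpina1b* 21.1% (457 CPM), *Serpina1c* 2.27% (49.2 CPM) and *Serpina1e* 1.18% (25.6 CPM). In the *Col10a1* cluster *Serpina1a* (36.6%, 195 CPM) and *Serpina1d* (29.8%, 158 CPM) again led, but *Serpina1c* made up 13.2% [11.9, 14.5], with 70.0 CPM. For *Serpina1c* the order of the clusters was not the same in both libraries, with 10.5 CPM in the *Col10a1* cluster and 16.4 CPM in the *Matn3* and *Epyc* cluster untreated, and 106 and 71.7 CPM with calcitriol. Of the 348 calcitriol UMIs of *Serpina1c* in the *Col10a1* cluster, 3 cells held 58.3%. For *Serpina1e* the levels were 34.5 and 25.6 CPM, and a single *Col10a1* cell held 169 of the 182 UMIs behind the former.

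In the *Matn3* and *Epyc* cluster the order of the copies was the same in both libraries, while their shares differed beyond counting error. Untreated and with calcitriol they were 41.9% and 47.5% for *Serpina1a*, 32.0% and 28.4% for *Serpina1d*, 23.8% and 20.4% for *Serpina1b*, 1.48% [1.12, 1.93] and 2.47% [2.22, 2.74] for *Serpina1c*, and 0.729% and 1.30% for *Serpina1e*. Counting error leaves out the spread between cells, and few cells held many of these UMIs. The top 3 cells held 40.0% and 45.7% of *Serpina1c*, and 1 calcitriol cell held 129 of 184 *Serpina1e* UMIs.

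In the *Prg4* and *Cytl1* cluster *Serpina1b* led with 52.2% (74.7 CPM), followed by *Serpina1d* with 22.7% (32.5 CPM), *Serpina1a* with 12.3% (17.7 CPM) and *Serpina1e* with 11.7% (16.8 CPM). These pooled shares mostly reflect the calcitriol library. In the untreated library *Serpina1e* came first, with 81 of 242 UMIs (26.4 CPM), 73 of them in 1 cell, ahead of *Serpina1b* with 69 (22.5 CPM), *Serpina1d* with 47 and *Serpina1a* with 42. *Serpina1a*, which led in the *Matn3* and *Epyc* cells, led in neither library here. In the calcitriol library the cell with the most *Serpina1b* in that cluster held 237 of 824 UMIs, and 46 cells carried the gene. In the *Notum* and *Sfrp5* cluster *Serpina1a* (51.9%) and *Serpina1d* (30.8%) led, though a single calcitriol cell held 261 of the 364 *Serpina1a* UMIs of its library, and untreated *Serpina1d* (55.7%) stood before *Serpina1a* (37.0%).

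Taken by gene, the *Matn3* and *Epyc* cluster held 82.6% of all *Serpina1a* UMIs, 77.3% of *Serpina1d*, 72.5% of *Serpina1b*, 48.6% of *Serpina1c* and 34.4% of *Serpina1e*. The *Col10a1* cluster held 24.7% of *Serpina1c* untreated (21 of 85 UMIs) and 46.5% with calcitriol. For *Serpina1e* it held 0.847% untreated and 36.6% with calcitriol, and the *Prg4* and *Cytl1* cluster 68.6% and 24.2%. Single cells carried most of the larger of these *Serpina1e* shares, with 169 of 181 calcitriol UMIs in the *Col10a1* cluster and 73 of 81 untreated UMIs in the *Prg4* and *Cytl1* cluster.

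Most other genes of the serpin locus had a low level. Of the 27 other protein-coding genes within 500 kb, 12 had no UMI in the *Matn3* and *Epyc* cluster and 24 were under 5 CPM. Of the 18 among them that belong to the *Serpina* family, 17 were under 5 CPM. The exception was *Serpina3n*, an acute-phase serpin, at 64.2 CPM. The other neighbours above 5 CPM were the helicase gene *Ddx24*, with 93.4 CPM, and the interferon-induced gene *Ifi27*, with 101 CPM.

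**Figure D2:**
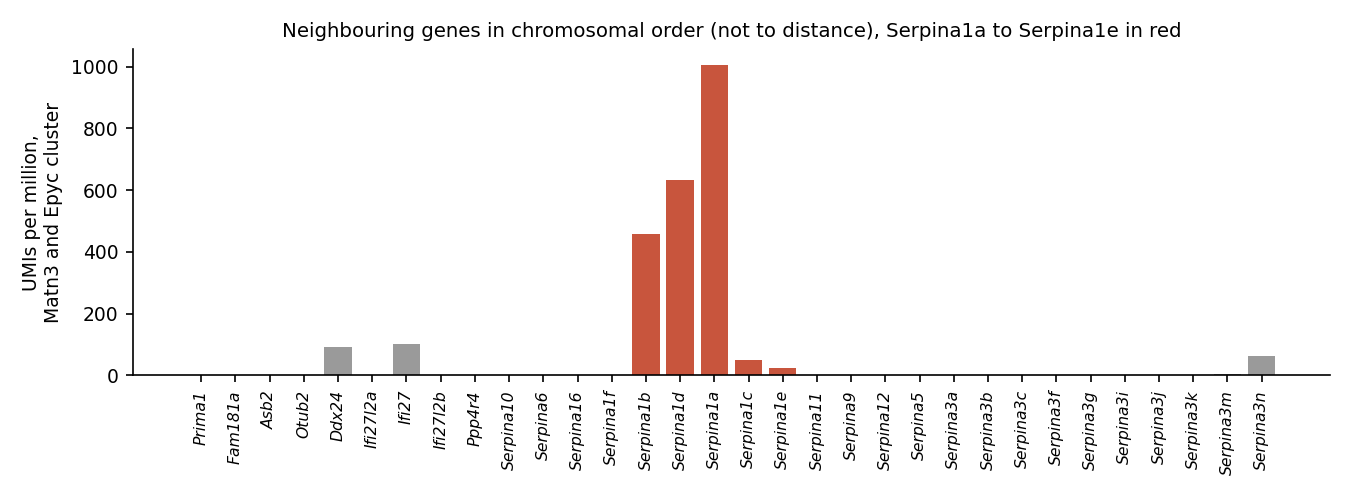
Level (CPM, linear axis from 0) in the *Matn3* and *Epyc* cluster of the 5 *Serpina1* genes (red) and of the 27 protein-coding genes within 500 kb (grey), in chromosomal order and not to distance. *Serpina1b*, *Serpina1d* and *Serpina1a* reach 457, 633 and 1006 CPM between neighbours that mostly show no bar.

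Within the *Matn3* and *Epyc* cluster the mRNA was very unevenly spread over cells. In the untreated library 78 of 107 cells had a UMI of the 5 genes. The median cell had 6 UMIs, the 3 richest had 423, 275 and 266, and the top 11 cells held 60.9% of all. In the calcitriol library 128 of 172 cells had one. There the median cell had 24 UMIs, the 3 richest had 946, 881 and 790, and the top 18 cells held 54.9%. In both libraries, then, many cells had none while the richest cells held 423 and 946.

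For genes of a like mean level this spread was unusual. The variance of *Serpina1a* over cells was 73.8 times its mean in the untreated library. The median was 7.46 times for 214 genes within 1.5-fold of its mean, with the *Serpina1* genes left out. In the calcitriol library it was 168 times, against 19.2 for 90 such genes. Only 6 of the 214 and 3 of the 90 genes had a higher ratio. *Serpina1a* was detected in 64.5% and 67.4% of the cells, where the median of those genes was 96.3% and 93.6%. *Matn3*, at a higher mean, had a variance of 36.6 and 40.8 times its mean and was detected in 99.1% and 90.7% of the cells. Cells were chosen into the cluster partly by these genes, so the values describe the cluster and test nothing.

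**Figure D3:**
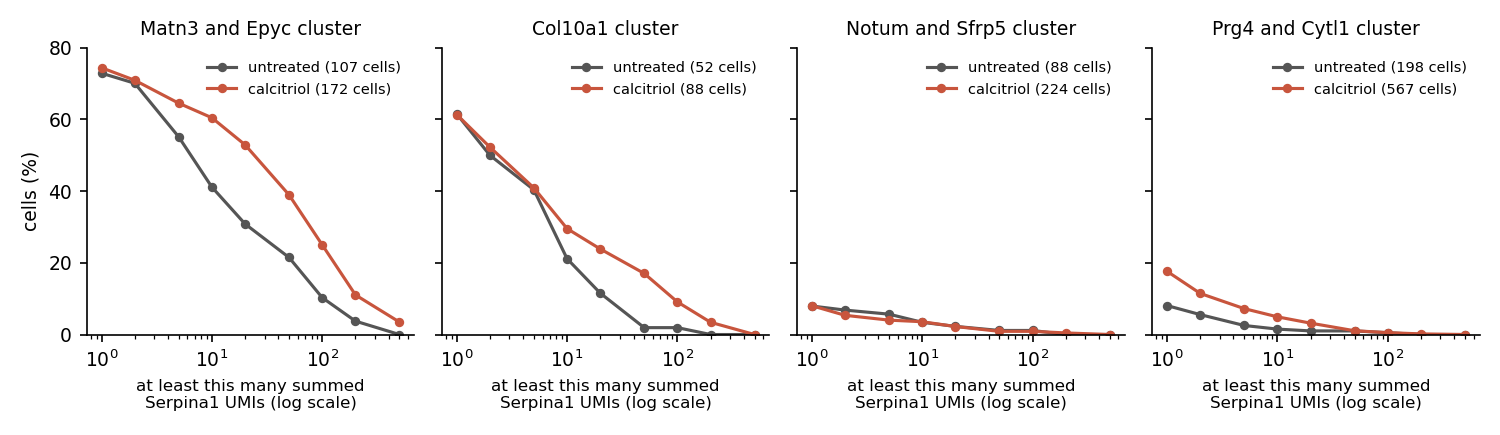
Share of cells (%) with at least a given number of summed *Serpina1* UMIs (log axis) in each chondrocyte-like cluster, for the untreated (grey) and calcitriol (red) library. The curves of the *Matn3* and *Epyc* cluster start together, at 72.9% and 74.4% for 1 UMI, and stand apart at 50 UMIs, at 21.5% and 39.0%, while those of the *Col10a1* cluster part only from 10 UMIs on.

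The copies were found in the same cells. At 5000 UMIs, 93 of the 260 *Matn3* and *Epyc* cells had none of the 5 genes, 28 had 1 of them, 52 had 2, 60 had 3, 25 had 4 and 2 had all 5. Of the 144 cells with *Serpina1a*, 84.0% [77.0, 89.6] also had *Serpina1d*, against 18.1% [11.6, 26.3] of the 116 cells without it. *Serpina1b* was in 54.9% and 8.62% of these cells, and *Serpina1c* in 22.9% and 3.45%. The copies are nearly alike in sequence, and the part of misplaced reads in this overlap was not tested.

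Among the 117 cells with at least 50 *Serpina1* UMIs, 115 had at least 3 of the copies. The most abundant copy of such a cell made up a median of 54.3% of its *Serpina1* UMIs. It was *Serpina1a* in 64 cells, *Serpina1d* in 32, *Serpina1b* in 17, and *Serpina1c* and *Serpina1e* in 2 cells each. Yet 8 cells drew more than 80% from 1 copy. A *Prg4* and *Cytl1* cell of the calcitriol library had 237 UMIs of *Serpina1b* among 252, and an untreated cell of that cluster had 73 of *Serpina1e* among 78. Neither was called a doublet. Single copies could therefore dominate single cells, including the copy that is rarest overall.

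Co-detection with *Matn3*, a matrilin of the cartilage matrix, was common. At 5000 UMIs per cell, 344 of the 7209 cells of all types had a *Serpina1* UMI. Of these, 213 also had *Matn3* (61.9% [56.6, 67.1]), against 309 of the cells without *Serpina1* (4.501%). In the other direction, 40.8% [36.6, 45.2] of the 522 *Matn3* cells had *Serpina1*, against 1.96% of the cells without *Matn3*. *Epyc*, a small proteoglycan of cartilage, was present in 39.8% [34.6, 45.2] of the *Serpina1* cells.

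Overlap with *Col10a1*, the collagen of hypertrophic cartilage, was smaller. Only 73 of the 344 *Serpina1* cells, or 21.2% [17.0, 25.9], had a *Col10a1* UMI, and 19.2% [15.4, 23.5] of the 380 *Col10a1* cells had *Serpina1*. Sorted by both partners, *Serpina1* was found in 1.61% of 6405 cells with neither, in 9.93% of 282 cells with *Col10a1* alone, in 39.6% of 424 cells with *Matn3* alone and in 45.9% of 98 cells with both. The same order held within the chondrocyte-like cells, with 9.02%, 28.7%, 45.6% and 47.4%. The intervals of the final pair, 40.4 to 50.9% and 37.0 to 57.9%, overlap. A step in the share with *Col10a1* in cells that had *Matn3* was not detectable with this number of cells. The level did differ, with 1514 CPM of *Serpina1* in chondrocyte-like cells with *Matn3* alone and 672 CPM in those with both (927 and 189 untreated, 1910 and 979 with calcitriol).

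By amount, *Serpina1* detection climbed with the *Matn3* count of chondrocyte-like cells. It was 10.8% in cells with 0 *Matn3* UMIs, 28.1% with 1, 33.7% with 2 to 3, 47.3% with 4 to 7, 54.2% with 8 to 15 and 57.5% [45.4, 69.0] with 16 or more. Both libraries had their lowest share in the cells without *Matn3* (7.20% untreated, 12.01% calcitriol) and their highest in those with 16 or more (47.9% and 76.0%). The *Serpina1* level did not climb throughout. At 4 to 7, 8 to 15 and 16 or more *Matn3* UMIs it was 1319, 714 and 896 CPM untreated. With calcitriol it was 1542, 2589 and 1632 CPM. With *Col10a1* the shares were 19.8% at 0 UMIs, 25.7% at 1, 41.7% at 2 to 3, 52.9% at 4 to 7, 40.9% at 8 to 15 and 39.6% [29.7, 50.1] at 16 or more. The middle *Col10a1* steps hold 12 to 35 cells each, and their intervals overlap.

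**Figure D4:**
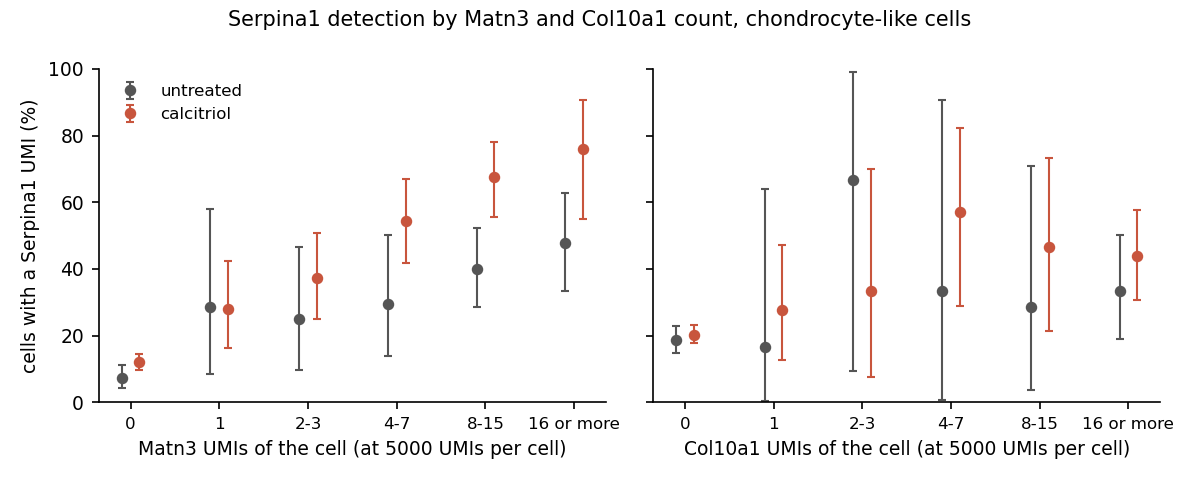
Share of chondrocyte-like cells with a *Serpina1* UMI (%), by the number of *Matn3* (left) or *Col10a1* (right) UMIs of the cell, with every cell at 5000 UMIs, for the untreated (grey) and calcitriol (red) library. Bars are exact 95% binomial intervals. With *Matn3* the calcitriol shares go from 12.01% to 76.0% and the untreated ones from 7.20% to 47.9%, while most *Col10a1* intervals overlap.

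Inside the *Matn3* and *Epyc* cluster the difference in *Matn3* was small over both libraries together, and its direction was not the same in each. *Matn3* was detected in 95.2% of the 167 *Serpina1* cells and in 92.5% of the 93 others, with levels of 2080 and 2241 CPM (log2 ratio −0.11 [−0.22, 0.00]). For *Epyc* the shares over both libraries were 65.3% and 61.3%. The richest cell of all, with 946 *Serpina1* UMIs among 15926, had only 3 of *Matn3* and none of *Col10a1*. Near-saturated *Matn3* detection limits what such a comparison can show.

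The genes that differed most between the 167 *Serpina1* cells and the 93 others of that cluster were ranked among 2866 genes with at least 50 UMIs. The largest ratios in favour of the *Serpina1* cells were those of *Mmp3*, a matrix-degrading protease (log2 ratio 2.68 [1.23, 4.61]), *Rrad* (2.30), *Cytl1*, a cartilage cytokine-like factor (2.21 [2.01, 2.42]), *Mgst2* (2.16), *Col1a1*, the bone collagen chain (1.91), *C4b*, a complement factor (1.86), *Ly6a* (1.83), *Aqp3*, a water and glycerol channel (1.81), *Tnni2* (1.70) and *Ahnak2* (1.54). Only *Cytl1* among them was frequent, in 54.5% of the *Serpina1* cells and 31.2% of the others. *Col1a1* ran the opposite way in the untreated cells, at −1.09 with a pseudocount of 10 CPM, against 2.94 in the calcitriol cells. With that pseudocount *C4b* was at 0.05 in the untreated and 2.42 in the calcitriol cells.

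At the other end were *Col10a1* (−3.23 [−3.82, −2.68]), the Wnt antagonist gene *Wif1* (−2.61 [−3.41, −1.87]), *Mustn1* (−1.86), the collagen genes *Col5a2* (−1.54) and *Col1a2* (−1.52), *Larp1b* (−1.51), *Fxyd3* (−1.44), *Atxn2* (−1.36), the laminin receptor gene *Itga6* (−1.31) and *Pcolce*, an enhancer of procollagen processing (−1.29). For *Col10a1* the share of cells hardly differed, 5.99% against 6.45%, and with a pseudocount the untreated cells gave a ratio of −4.85 and the calcitriol cells −0.32. The 167 *Col10a1* UMIs of the cells without *Serpina1* lay in 6 cells. *Wif1* was lower in the *Serpina1* cells of both libraries (−2.68 and −1.46), in 7.19% of cells against 23.7%. *Pcolce* changed direction, at −1.68 in the untreated and 0.34 in the calcitriol cells. The *Serpina1* cells were 54 untreated and 113 calcitriol cells and the others 51 and 42, so a difference between the libraries enters these ratios.

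Across the 24 clusters, the genes whose level most resembled the summed *Serpina1* level were *Ccn6* (Pearson r of log2 CPM with a pseudocount of 10, 0.99), *Gm19510* (0.98), *Col9a1* (0.97), *Gramd2* and *Tmprss13* (0.96 each), and *Col9a3*, *Cnmd*, *Col9a2*, *A330041J22Rik* and *Phlda2* (0.95 each), of 14504 genes compared. *Col9a1*, *Col9a2* and *Col9a3* encode the chains of type IX collagen and *Cnmd* encodes chondromodulin, a cartilage inhibitor of vessel growth. *Matn3* gave 0.91, *Col2a1* 0.89, *Epyc* 0.87, *Col10a1* 0.75 and *Prg4* 0.10. The clusters share their libraries and most are at the floor for all these genes, so the values describe the clusters only.

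In the calcitriol library the *Serpina1* genes stood higher in the *Matn3* and *Epyc* cluster. Their sum was 1104 CPM in 107 untreated cells and 2905 CPM in 172 calcitriol cells, a log2 ratio of 1.40 [1.34, 1.45], or 2.63-fold. *Serpina1a* went from 463 to 1379 CPM (1.57 [1.49, 1.65]), *Serpina1b* from 263 to 591 CPM (1.17), *Serpina1c* from 16.4 to 71.7 CPM (2.13 [1.72, 2.57]) and *Serpina1d* from 354 to 825 CPM (1.22). These 4 copies passed the filter (50 UMIs or more, and a UMI in 10% or more of the cells from either library), and all 4 were at least 2-fold higher, as were 2.63% of the 8104 genes that passed it. Under some alternatives 2 of the 4 fell short of 2-fold. *Serpina1b* gave 0.99 with 20 components, 0.95 without the genes among the variable genes and 0.97 with clusters past any limit left out, and *Serpina1d* gave 0.88 as the mean of the cells' own CPM. The 4 come from the same cells and are nearly alike in sequence, so they are not 4 separate observations. Ratios as large as that of the sum were reached by 1.3% of those genes. The median log2 ratio of all genes tested was −0.13.

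*Serpina1e* did not pass that filter. It had 27 UMIs in 5 untreated cells and 184 UMIs in 11 calcitriol cells, and 129 of the latter sat in 1 cell. Its log2 ratio was 2.23 [1.64, 2.87] with all cells and −0.20 [−0.99, 0.60] without the 5 cells richest in *Serpina1* of each library. For the sum, leaving out those 5 cells gave 1.63. These cells are picked by the measured value and are a larger part of the 107 untreated than of the 172 calcitriol cells, so neither ratio is a check on the difference. Scored by the mean of the cells' own CPM, the sum gave 1.07.

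The difference lay in how much *Serpina1* the positive cells held, more than in how many were positive. With all UMIs the positive shares were 72.9% [63.4, 81.0] and 74.4% [67.2, 80.8], while the median positive cell held 14 and 56.5 UMIs. The median depth of these cells was 30376 UMIs untreated and 28549 with calcitriol. At 5000 UMIs the shares were 51.4% [41.5, 61.3] and 72.9% [65.2, 79.7]. Thinning can remove the few UMIs of a weak cell, so this share follows the amount as well.

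The markers *Matn3*, *Epyc* and *Col10a1* were lower in the same cells with calcitriol. *Matn3* was at 2942 and 1759 CPM (−0.74 [−0.78, −0.70]), *Epyc* at 473 and 304 CPM (−0.64) and *Col10a1* at 616 and 56.0 CPM (−3.46), in 15.0% and 11.6% of the cells. The *Col10a1* value depends on where the cluster ends, since at resolution 1.2, with 20 components or without these genes among the variable genes the cluster highest in *Matn3* had 7.30 to 8.66 CPM of it over both libraries, against 284 CPM here. Of 6 columnar and proliferating zone genes, all 6 passed the filter and 3 were at least 2-fold lower with calcitriol, against 4.27% of all genes tested, with a median of −0.89. Those 3 were *Matn1*, a matrilin (−1.36), and the cell division genes *Mki67* (−1.05) and *Top2a* (−1.20). None of the 12 chondrocyte markers differed 2-fold. The part of these zone genes in the *Serpina1* values was not tested.

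Markers of neighbouring cell types also differed between the libraries. In the *Matn3* and *Epyc* cluster *Ibsp*, a gene of bone matrix and hypertrophic cartilage, had 15 UMIs untreated and 1825 with calcitriol, and *Cytl1* 915 and 9482. Of the 5 superficial articular markers, the 3 that passed the filter there (*Prg4*, *Cytl1* and *Clu*) were all at least 2-fold higher with calcitriol, against 2.63% of all genes tested. *Prg4* was detected in 7.41% of untreated and 33.6% of calcitriol erythroid-like cells. For the *Serpina1* genes the erythroid-like level was 0.475 CPM untreated and 2.19 CPM with calcitriol, far under the levels of the *Matn3* and *Epyc* cells. The part of RNA from other cells in each difference was not tested.

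When chondrocyte-like cells were split by their *Matn3* count at 5000 UMIs, calcitriol cells held more *Serpina1* in 5 of 6 steps beyond counting error. The log2 ratio was 0.91 with 0 *Matn3* UMIs (236 untreated and 716 calcitriol cells), 2.29 with 1 (14 and 50) and 1.76 with 2 to 3 (24 and 59). It was 1.86 with 8 to 15 (70 and 74) and 0.87 with 16 or more (48 and 25). The step with 1 rested on 11 untreated *Serpina1* UMIs, and its positive shares were 28.6% untreated and 28.0% with calcitriol. With 4 to 7 *Matn3* UMIs it was 0.23 [−0.02, 0.48], from 27 untreated and 66 calcitriol cells. The calcitriol level was higher in most steps, and the size varied widely from step to step. In the untreated library the steps with 1, 2 to 3 and 4 to 7 had only 4, 6 and 8 positive cells. Counting error leaves out the spread between cells, so the count of steps is a description. *Matn3* was itself lower with calcitriol in chondrocyte-like cells (−1.24, and −0.74 within the *Matn3* and *Epyc* cluster), so cells with a like count need not be alike. The part of *Matn3* or zone in the *Serpina1* difference was not tested.

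In the *Col10a1* cluster the sum was 207 CPM in 52 untreated cells and 730 CPM in 88 calcitriol cells (1.82 [1.67, 1.97]). At 5000 UMIs per cell the ratio was 2.75 and by the mean of the cells' own CPM 2.34. The shares of positive cells, 61.5% [47.0, 74.7] and 61.4% [50.4, 71.6], had overlapping intervals, and the median cell held 1.5 and 2 UMIs. The gap came from a few rich cells, with 1 untreated and 15 calcitriol cells at 50 UMIs or more. *Serpina1a* (1.51), *Serpina1c* (3.34 [2.71, 4.05]) and *Serpina1d* (1.91) were at least 2-fold higher and *Serpina1b* was just under (0.97). So 3 of the 4 copies that passed the filter reached that fold, as did 2.88% of 6667 genes, and 0.645% reached the ratio of the sum. *Serpina1e* had 1 and 181 UMIs, 169 of them in the single cell named above. *Matn3* (−0.83), *Epyc* (−0.66) and *Col10a1* (−0.76) were again lower, though none of the 4 columnar zone genes that passed reached 2-fold lower (3.97% of all genes did), and *Prg4* had 5 UMIs untreated and 5032 with calcitriol.

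**Figure D5:**
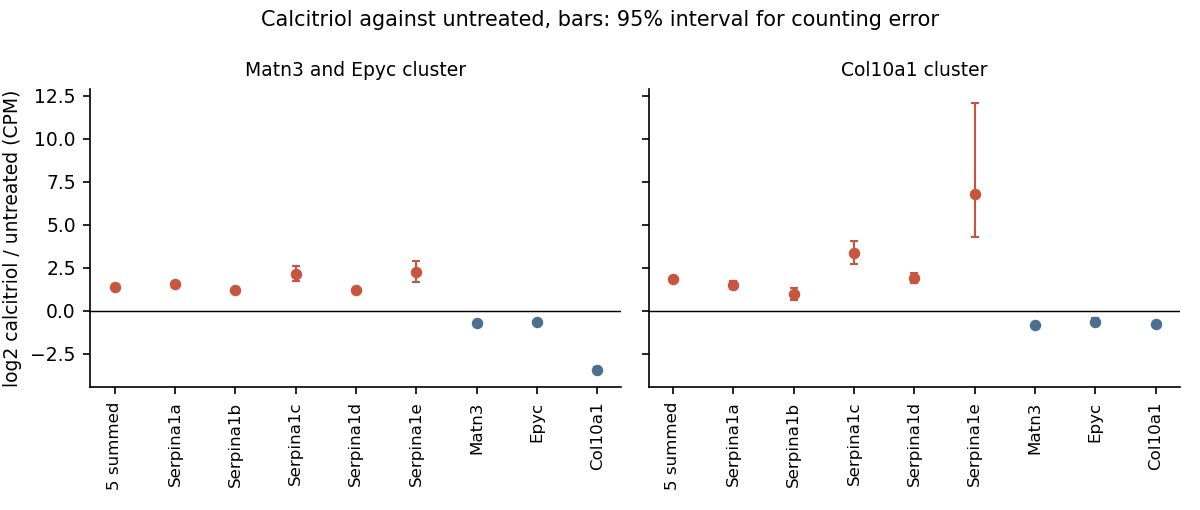
Log2 ratio of calcitriol over untreated CPM for the summed and single *Serpina1* genes (red) and for *Matn3*, *Epyc* and *Col10a1* (blue), in the *Matn3* and *Epyc* and the *Col10a1* cluster, with 1 library per group. Bars are 95% intervals for counting error, and the wide one of *Serpina1e* in the *Col10a1* cluster rests on 1 untreated UMI. The *Serpina1* sums sit at 1.40 and 1.82, while all 3 partners are below 0.

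In the *Prg4* and *Cytl1* cluster the sum was 78.9 CPM in 198 untreated and 165 CPM in 567 calcitriol cells (1.07 [0.87, 1.27]), and the positive share was 8.08% and 17.6%. Of the 242 untreated UMIs the richest cells held 114 and 78, a spread between cells that the interval leaves out. Without the richest cell of each library the ratio was 1.71. *Serpina1b* was the copy with the largest gap there, 22.5 and 92.8 CPM (2.04 [1.69, 2.42]). Its 69 untreated UMIs lay in 6 cells, and 37 of these UMIs sat in 1 cell. *Serpina1e* went the other way, from 26.4 to 13.5 CPM (−0.97), though 73 of its 81 untreated UMIs were in 1 cell. No copy passed the filter in that cluster, where 2.05% of 7702 genes reached the ratio of the sum. *Col10a1*, a gene of another zone, was also higher in these cells with calcitriol, at 67.5 and 230.3 CPM.

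In the *Notum* and *Sfrp5* cluster the direction was not settled. The sum was 122 CPM untreated and 162 CPM with calcitriol (0.41 [0.18, 0.65]), from 7 positive cells of 88 and 18 of 224. A calcitriol cell of 152859 UMIs, called a doublet, held 362 of the 646 calcitriol UMIs. Without called doublets the ratio was −1.04, at 5000 UMIs per cell −0.63, and by the mean of the cells' own CPM −0.31. Over all chondrocyte-like cells the sum was 455 and 889 CPM (0.97 [0.92, 1.01]). There 2 of the 4 copies that passed the filter, *Serpina1a* and *Serpina1c*, were at least 2-fold higher, against 1.97% of 8597 genes. *Serpina1c* passed only through the calcitriol library, with a UMI in 10.4% of its cells against 8.31% untreated. The filter thus favoured its place in that count. The chondrocyte-like class held 445 untreated and 1051 calcitriol cells. Of these, 107 and 172 were *Matn3* and *Epyc* cells, and 198 and 567 were *Prg4* and *Cytl1* cells. The unlike makeup enters the values over all chondrocyte-like cells.

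Direct vitamin D signalling genes had few UMIs in these cells. *Vdr*, the receptor gene, had 21 UMIs untreated and 37 with calcitriol in the *Matn3* and *Epyc* cluster (7.04 CPM in all, log2 ratio 0.28). *Cyp24a1*, which encodes the enzyme that inactivates calcitriol and is a textbook target of the receptor, had 0 and 5 UMIs. In the *Col10a1* cluster *Vdr* was at 20.7 CPM and *Cyp24a1* had 0 and 6 UMIs. Outside the chondrocyte-like clusters *Vdr* was at 11.9 CPM, above the *Matn3* and *Epyc* cluster and below the *Col10a1* cluster. *Cyp24a1* was at 0.19 CPM there, against 0.61 and 1.14 CPM in these clusters.

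The markers of hepatocytes were at or near 0 in these cells. Of the 6, *Ttr*, *Fgb* and *Ahsg* had 0 UMIs in the *Matn3* and *Epyc* cluster, *Alb* and *Apoa1* had 1 each and *Apoa2* had 8. *Hnf4a*, which encodes a factor that drives hepatocyte genes, also had 0 there. *Foxa3* was at 45.1 CPM in the *Matn3* and *Epyc* cluster and 94.8 CPM in the *Col10a1* cluster, against 2.54 CPM in the cells outside the chondrocyte-like clusters, and *Foxa2* at 17.0 and 43.4 against 1.47 CPM. *Cebpb* (356 CPM) was not higher than in those other cells (432 CPM). With calcitriol none of the 4 liver factors that passed the filter differed 2-fold in the *Matn3* and *Epyc* cluster. Of all genes tested there, 2.63% were at least 2-fold higher and 4.27% lower. In the *Col10a1* cluster 1 of the 3 that passed, *Cebpb*, was at least 2-fold higher (1.01), as were 2.88% of all genes tested.

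Cartilage factors were present throughout. In the *Matn3* and *Epyc* cluster *Sox9*, the master factor of chondrocytes, was at 1819 CPM, *Sox5* at 208, *Runx2* at 137, *Runx3* at 116, *Sox6* at 80.3 and *Mef2c* at 62.5 CPM. None of the 6 differed 2-fold between the libraries in this cluster or the *Col10a1* cluster. Of all genes tested, 2.63% and 2.88% were at least 2-fold higher in these clusters, and 4.27% and 3.97% lower. *Sox9* was higher in the *Serpina1* cells of the *Matn3* and *Epyc* cluster than in the others (log2 ratio 0.45 [0.32, 0.58]).

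Among genes for export and folding in the endoplasmic reticulum, 2 of 6 were at least 2-fold lower with calcitriol in the *Matn3* and *Epyc* cluster, against 4.27% of all genes tested, with a median of −0.47. They were the cargo receptor genes *Lman1* (−1.35), whose product carries alpha-1-antitrypsin out of the endoplasmic reticulum, and *Surf4* (−1.07). *Hspa5*, a chaperone gene, was at 0.34. In the *Col10a1* cluster *Lman1* alone reached that fold (−1.13), against 3.97% of all genes. The main target protease genes *Elane*, *Prtn3* and *Ctsg* of neutrophils had 0 UMIs in the *Matn3* and *Epyc* cluster. *St14*, which encodes the membrane protease matriptase, was at 6.80 CPM, and *Lrp1*, which encodes a receptor that clears serpin complexes, at 202 CPM (−0.26).

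Other serpin genes showed no shared direction. Of the 19 other genes named *Serpina*, 11 had 0 UMIs in the *Matn3* and *Epyc* cluster, and *Serpina3n* alone passed the filter, with 85 UMIs untreated and 444 with calcitriol (1.84). Of the 38 remaining serpin genes, 5 passed it. Of all 32285 genes, 8104 passed it. *Serpine2*, which encodes an inhibitor of thrombin and plasminogen activators, was higher with calcitriol (1.80), and *Serpinh1*, a collagen chaperone gene that was the most abundant at 2195 CPM, was lower (−1.34). In the *Col10a1* cluster *Serpine2* (1.89) was again higher and *Serpinh1* (−1.39) again lower by at least 2-fold.

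Of the remaining zone lists in that cluster, none of the 2 resting and 4 prehypertrophic genes that passed the filter differed 2-fold, with medians of −0.65 and −0.10. Of the 7 hypertrophic genes, 3 were at least 2-fold higher with calcitriol, against 2.63% of all genes tested, and *Col10a1* alone at least 2-fold lower, against 4.27%, with a median of 0.36. The 3 were *Ibsp* (6.39), *Mmp13*, a collagenase gene (3.85), and *Spp1*, which encodes osteopontin (1.04). *Mmp13* had 6 UMIs in the 107 untreated cells, too few to reach 10% of them. It passed the filter only through the calcitriol library, with 126 UMIs, so the filter itself favoured its place among the 3. In the *Col10a1* cluster none of the 7 differed 2-fold, where 2.88% of all genes tested were at least 2-fold higher and 3.97% lower.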

How the data were processed

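The authors had aligned the reads to mm10 (GRCm38) with Cell Ranger 4.0.0 and deposited, for each library, the filtered matrix of UMI counts per gene and cell, with no normalization. They clustered with Seurat 3.2.2, and the clusters were rebuilt here and may differ from theirs. Only barcodes with 200 genes or more were used, and both libraries were first clustered separately. Clusters were dropped when their median mitochondrial share was above 10%, their median gene number under 1000 and their median UMI number under 2000. The rest were integrated and clustered with 2000 variable genes, 30 principal components and resolution 0.8 (Seurat 5.3.0, R 4.3.3). A cluster was named from at least 3 markers of a list, and genes of the list had to be 2-fold above the other clusters with a pseudocount of 10 CPM. Doublets were scored with Scrublet in scanpy 1.11.5. Its own threshold called 0 untreated and 4 calcitriol barcodes, so the highest scores were called instead, up to the expected share (213 and 136 barcodes), and they were left out only as an alternative.

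A level was the summed UMIs of a gene over all UMIs of the same cells (Python 3.11.15, numpy 2.4.6, scipy 1.17.1, pandas 2.3.3; figures with matplotlib 3.10.9). Shares of cells and co-detection used every cell thinned at random to 5000 UMIs. Since each group is 1 library, no p-value was computed, and a ratio past 2-fold is a description. A gene at 0 in a library entered list medians at a floor of 3 counts. The ratio intervals were also run on Poisson counts simulated from the pooled UMIs of the *Matn3* and *Epyc* cluster. Those counts leave out the spread between cells, so the run cannot show whether the intervals hold for the *Serpina1* genes. Promoters, transcripts and positions came from RefSeq and GENCODE tables for GRCm38, and GENCODE's span of *Serpina1b* overlaps *Serpina1d*. The 5 genes, the marker lists and the pathway lists were chosen with earlier results of these data known. The genes named are the 5 *Serpina1* genes, *Matn3*, *Epyc*, *Col10a1*, the lists, the 10 genes most like the sum over clusters, and the 10 largest and 10 smallest ratios between *Serpina1* cells and other cells. The splits by *Matn3* count and the removal of the richest cells were added after the values had been seen. Some members of the lists are not reported here. Reads, protein and tissue sections were not analysed here.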

Additional observations from a re-analysis of the deposited data

Results flagged for a closer look

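The 2551 barcodes that the filters had left out held 12 UMIs of the 5 *Serpina1* genes, in 11 barcodes, 5 UMIs in the untreated and 7 in the calcitriol library. They enter no comparison above.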

How the results depend on the processing

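The summed *Serpina1* level of the cluster highest in *Matn3* moved beyond its counting interval under all 11 alternatives. It was 2171 CPM in the report, 1628 CPM at resolution 0.5, 2654 at 1.2, 2629 with 20 components, 1529 merged without integration, 2467 without the genes among the variable genes, 2561 with clusters past any limit left out, 2227 without called doublets, 2555 at 5000 UMIs, 2285 without haemoglobin and mitochondrial UMIs, 2426 as the mean of cells and 1593 without the 5 richest cells of each library. At resolution 0.5 and without integration that cluster took in *Col10a1* cells, with 5291 and 6011 CPM of *Col10a1*, against 284 in the report. The share of UMIs in chondrocyte-like clusters was 97.5% at resolution 0.5, 96.9% with 20 components and 99.4% without doublets. Positive cells were 52.3% among 575 cells with a *Matn3* and 5 *Col2a1* UMIs, and 64.2% at 5000 UMIs.

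The calcitriol log2 ratio of that cluster stayed above 0, at 1.33 (resolution 0.5), 1.26 (1.2), 1.23 (20 components), 1.21 (without the genes), 1.17 (any limit), 1.52 (no doublets), 1.26 (marker UMIs), 1.21 (5000 UMIs), 1.07 (mean of cells), 1.63 (without 5 cells) and 1.47 (without the richest cell of each library). Over all chondrocyte-like cells it was 0.69 at 5000 UMIs, 0.68 as the mean of cells, 1.17 without 5 cells, and 0.91, 2.29, 1.76, 0.23, 1.86 and 0.87 by rising *Matn3* count. *Serpina1e* reversed to −0.20 without 5 cells, and the *Notum* and *Sfrp5* cluster to −1.04 (no doublets), −0.63 (5000 UMIs) and −0.31 (mean of cells). Its richest cell is a called doublet. The cause was otherwise not tested. The *Matn3* share among *Serpina1* cells was 67.1% within chondrocyte-like cells, and the *Col10a1* share 27.4% with all UMIs and 15.9% with 2 UMIs as the limit.

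No paired analysis was possible because each group is 1 library. Rare copies are limited by depth, since *Serpina1e* had 613 UMIs in all kept cells.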
